A study of Mus musculus with 9 samples.

Results

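Meiosis and germ cell genes were measured on expression arrays of 3 mouse cell lines, and most of their called differences were rises from the level in the embryonal carcinoma line P19. The set comprised 42 genes listed by name, from regulators of germ cell fate to the machinery of meiotic recombination. A gene was measured where the platform annotation gave a probe set its symbol and no other, and the probe set with the highest mean log2 intensity over the arrays stood for it. This gave 40 of the 42 genes, out of 19938 named genes and 28853 probe sets on the array. Syce3, a part of the synaptonemal complex, and Fkbp6, a co-chaperone of transposon defence, had no such probe set and were not measured here. The expression of 15 of the 40 genes was called different between at least 1 pair of lines, which was 37.5% of them, against 9.37% of all named genes. The set was chosen with earlier results of these data known, so its shares of calls here and below describe it and test no enrichment.

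P19 is a line of embryonal carcinoma cells, the stem cells of a teratocarcinoma. P19 NTES7 is an ES-like line from a blastocyst that was cloned by transferring a P19 nucleus into an enucleated B6D2F1 oocyte, so its nuclear genome comes from P19 and it is 1 line only. The sample labels name it only as P19 cells derived pluripotent stem cells, the design text gives the code N7P8, and its arrays were read here as those of P19 NTES7. R1 is a line of normal embryonic stem (ES) cells. All 3 lines were grown in ES medium with serum and leukemia inhibitory factor (LIF). No group was given a drug or a genetic change for the comparison, and the methods describe the collected ES cells as feeder free. The methods name mitomycin C-treated mouse embryonic fibroblasts as the feeder layer of P19 NTES and the other pluripotent lines. Each line had 3 arrays, called biological replicates in the labels. No source used here says whether these were separate cultures, so each p-value measured the spread between the arrays.

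Meiosis reduces the chromosome set of germ cells to a single one, and its prophase needs proteins that ordinary dividing cells lack. Cohesins of a meiotic kind hold sister chromatids along a proteinaceous axis, programmed DNA breaks are repaired on the homologous chromosome, and the synaptonemal complex zips the homologues together. Outside the germ line many of these genes are kept silent, and in mouse ES cells the silencing is known to involve DNA methylation of promoters rich in CG dinucleotides and a Polycomb complex that binds DNA through MGA and MAX (at the E-box CACGTG) and through E2F6.

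The promoters of 6 called genes, taken from groups of genes that were called in different pairs of lines, are printed here for the letters of those motifs and the density of CG. They are examples, and an E-box was more frequent among them than among all called genes with a promoter window, given below. Sequences and coordinates are those of RefSeq on GRCm38.p6, from 250 bases before the annotated start up to the base before it, read 5′ to 3′ on the strand of the gene. Capitals mark an E-box (CACGTG, the same on both strands) or an E2F6-type motif (GCGGGA, or TCCCGC on the other strand). Only motifs that lie wholly within the printed bases are marked. Meioc is at chr11:102665335-102665584 (+ strand), Brdt at chr5:107330944-107331193 (+ strand) and Usp26 at chrX:51801234-51801483 (- strand), and these are the 3 genes of the set called higher in P19 NTES7 than in R1. Hormad1 at chr3:95559427-95559676 (+ strand) and Stag3 at chr5:138280259-138280508 (+ strand) were highest in R1, and Slc25a31 at chr3:40708621-40708870 (+ strand) was called over P19 in both other lines.
Meioc: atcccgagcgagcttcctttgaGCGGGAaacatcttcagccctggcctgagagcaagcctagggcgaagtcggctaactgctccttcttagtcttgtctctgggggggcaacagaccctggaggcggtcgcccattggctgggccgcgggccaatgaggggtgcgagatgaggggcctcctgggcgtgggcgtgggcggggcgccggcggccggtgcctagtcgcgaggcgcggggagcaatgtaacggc
Brdt: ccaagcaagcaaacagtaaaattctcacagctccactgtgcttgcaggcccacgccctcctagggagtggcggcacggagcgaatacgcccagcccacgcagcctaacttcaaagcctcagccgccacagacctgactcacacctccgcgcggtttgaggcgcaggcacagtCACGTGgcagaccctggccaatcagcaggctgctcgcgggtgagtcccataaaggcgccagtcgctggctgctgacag
Usp26: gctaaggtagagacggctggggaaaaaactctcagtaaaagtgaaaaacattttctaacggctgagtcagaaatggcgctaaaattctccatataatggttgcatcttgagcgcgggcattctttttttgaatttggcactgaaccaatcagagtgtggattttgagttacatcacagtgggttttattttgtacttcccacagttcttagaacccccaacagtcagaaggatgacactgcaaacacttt
Hormad1: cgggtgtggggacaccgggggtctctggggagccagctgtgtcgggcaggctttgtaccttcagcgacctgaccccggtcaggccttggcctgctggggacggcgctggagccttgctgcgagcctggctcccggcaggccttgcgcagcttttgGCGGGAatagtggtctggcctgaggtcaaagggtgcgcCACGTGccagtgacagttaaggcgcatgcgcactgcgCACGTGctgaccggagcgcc
Stag3: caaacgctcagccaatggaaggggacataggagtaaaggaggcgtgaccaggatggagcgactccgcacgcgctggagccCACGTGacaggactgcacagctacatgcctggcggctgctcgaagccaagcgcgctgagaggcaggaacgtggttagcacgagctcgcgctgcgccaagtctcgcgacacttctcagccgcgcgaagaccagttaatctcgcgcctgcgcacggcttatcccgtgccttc
Slc25a31: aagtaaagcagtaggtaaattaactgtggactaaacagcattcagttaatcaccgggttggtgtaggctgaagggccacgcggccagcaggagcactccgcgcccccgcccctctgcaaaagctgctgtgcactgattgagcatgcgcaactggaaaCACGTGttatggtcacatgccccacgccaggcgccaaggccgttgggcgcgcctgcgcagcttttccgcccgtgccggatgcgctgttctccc

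These stretches differ most in CG. Usp26 had 5 CG dinucleotides in its 250 bases and neither motif, whereas Meioc had 22 and Stag3 had 26. Brdt, Stag3 and Slc25a31 each had 1 E-box, and Hormad1 had 2. Stag3 and Slc25a31 also have an E2F6-type motif that is not in capitals. It begins at position -2 in Stag3 and at position 21 in Slc25a31, counted from the annotated start.

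Values are intensities on the linear scale. The median of all probe sets on an array was 16.5 to 17.5, and a value below it could not be told from the background of the array, since no detection calls were used here. A gene was called where limma gave an adjusted p (Benjamini-Hochberg, across all probe sets) under 0.01 and a fold over 2. A level is printed with its SD over 3 arrays and a log2 difference with its standard error from the fit over the 9 arrays. Both comparisons with P19 use the same P19 arrays. In RNA from a culture, fewer cells that express a gene and less RNA in each cell cannot be told apart.

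Markers of other cells differed between the lines, and 1 array stood apart. R1 replicate 3 was less like the other R1 arrays than they were like each other, with a correlation of log2 values across probe sets of 0.989 and 0.990 with them, while these correlated at 0.998. Of 8 pluripotency markers none was below the array median in any line, but 3 were called. Nanog and Zfp42 were called over P19 in both other lines, with Zfp42 at 19.7 ± 5.19, 41.7 ± 3.19 and 289 ± 37.8 in P19, P19 NTES7 and R1, and Utf1 was called lower in P19 NTES7 than in either other line, at 471 ± 70.4, 73.5 ± 20.3 and 584 ± 79.1. Of 23 measured fibroblast markers 19 were called higher in R1 than in P19, 15 were called over P19 in P19 NTES7, and 4 were called under R1 in P19 NTES7. Their summed intensity was 809.8 to 827 in P19, 2341 to 2974 in P19 NTES7 and 3541 to 3967 in R1, and 15, 2 and 1 of them were below the array median in these lines. Among them Thbs1 (thrombospondin 1) was at 16.4 ± 1.5, 206 ± 27.9 and 448 ± 32.2 in P19, P19 NTES7 and R1, and Dcn (decorin) at 8.45 ± 0.24, 80.6 ± 7.23 and 232 ± 70.5. The part of such cells in the differences of the germ cell genes was not tested. Of 7 measured Y-linked genes 3 (Eif2s3y, Uty and Kdm5d) were called under P19 in P19 NTES7. The summed intensity over the 7 was 77.0 to 78.7 in P19 NTES7, 334 to 384 in P19 and 366 to 432 in R1. Eif2s3y and Uty were also called under R1 in P19 NTES7, and Kdm5d was called under P19 in R1. What the low Y-linked values mean for P19 NTES7 was not tested.

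**Figure D1:**
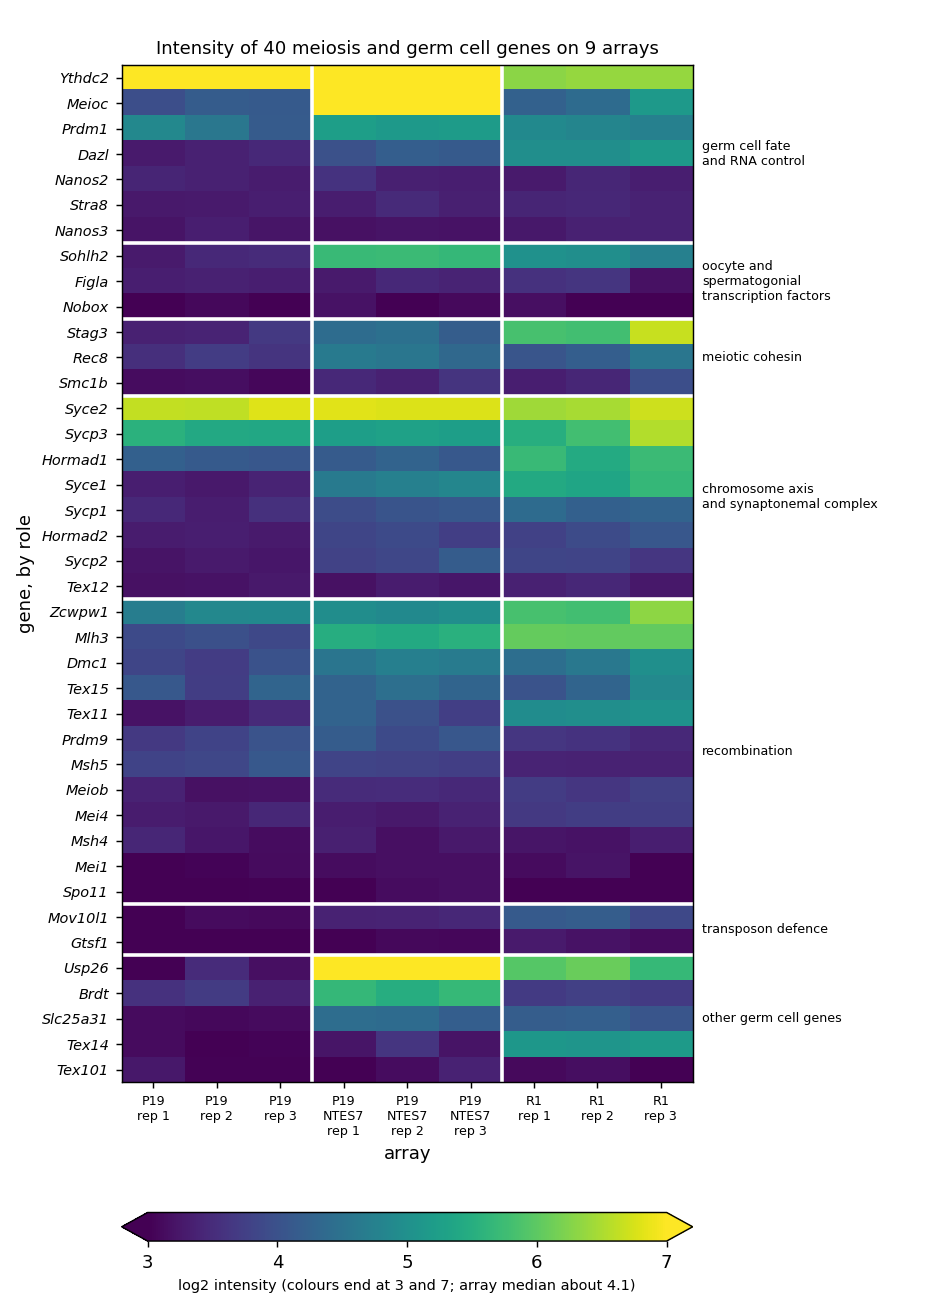
Log2 intensity of the 40 measured genes (rows, grouped by role) on the 9 arrays (columns, 3 for each line), where colours run from 3 to 7 on the log2 scale and the array median is at about 4.1. Meioc and Usp26 are bright on all 3 P19 NTES7 arrays, and the dark rows in every line hold genes such as Spo11, Mei1, Nobox and Nanos3.

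In R1, 12 of the 40 genes were called higher than in P19, or 30% of them, where 3.85% of named genes were, and 1 was called lower, where 3.46% were. Against the P19 line, P19 NTES7 had 7 genes called higher, or 17.5%, and 0 lower, beside 1.44% and 1.38% of named genes. Between the derived line and R1, 3 genes were called higher in P19 NTES7 and 4 lower, beside 1.68% and 2.84% of named genes. The median log2 difference of the 40 genes was 0.45 for R1 minus P19, 0.27 for P19 NTES7 minus P19 and -0.04 for P19 NTES7 minus R1, beside 0.02, 0.02 and 0.01 over all named genes. A further 8 genes had an adjusted p under 0.01 between R1 and P19 but did not reach the fold, 7 of them higher in R1, where 6.82% of named genes were higher in this way and 10.9% lower. In P19 NTES7 against P19 there were 9 such genes, all higher in P19 NTES7, where 3.45% of named genes were higher in this way and 5.87% lower. In P19 NTES7 against R1 there were also 9, with 3 higher and 6 lower, beside 7.56% and 6.6% of named genes. Arrays of R1 were clear of all P19 arrays in 26 of the 40 genes, beside 47.4% of named genes, and those of P19 NTES7 and P19 in 26, beside 36.2%. Those of P19 NTES7 and R1 did not overlap in 25, beside 39% of named genes.

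The called genes fell into 4 patterns and 1 gene apart. Meioc and Brdt were high in P19 NTES7 only, a pattern of calls that 0.226% of named genes shared. Usp26 was highest in P19 NTES7 and also higher in R1 than in P19, as were 0.0301% of named genes. Sohlh2, Syce1, Mlh3 and Slc25a31 were called over P19 in both other lines and did not differ by the call rule between them, a pattern found in 0.883% of named genes. Dazl, Stag3, Hormad1, Zcwpw1, Tex11, Mov10l1 and Tex14 were called over P19 in R1 but not in P19 NTES7, as were 2.93% of named genes. Ythdc2 was the single gene called lower in R1 than in P19. With 16 added to each intensity before the log, Dazl, Hormad1, Zcwpw1, Tex11, Mov10l1 and Slc25a31 lost every call, Sohlh2 lost that in R1, Syce1 and Mlh3 lost those in P19 NTES7, and Tex14 lost that between P19 NTES7 and R1.

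**Figure D2:**
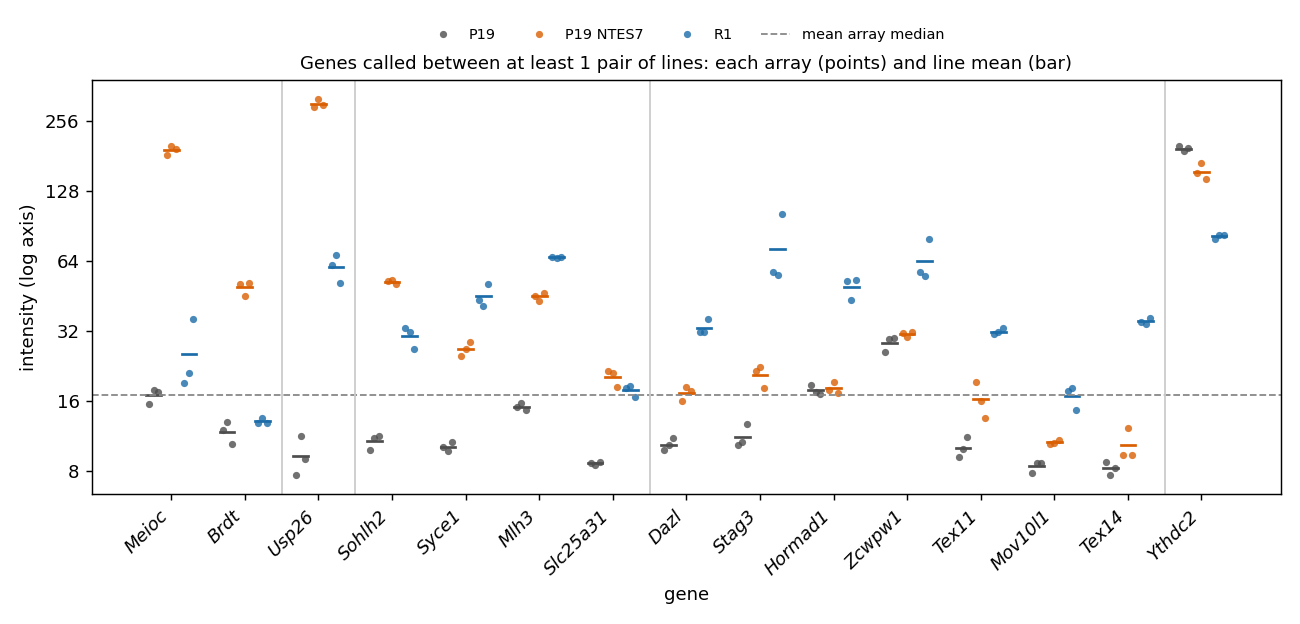
Intensity (log axis) of the 15 called genes on each array (points) with the mean of each line (bar), ordered by pattern and divided by vertical lines, with the mean array median dashed. Meioc, Brdt, Usp26 and Sohlh2 have all 3 P19 NTES7 arrays above every other array, whereas Dazl, Stag3, Hormad1, Zcwpw1, Tex11, Mov10l1 and Tex14 are highest in R1.

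The largest difference among the 40 genes was that of Usp26, an X-linked deubiquitinase expressed mainly in the testis. Its intensities were 7.62, 11.2 and 8.99 in P19, 293, 318 and 299 in P19 NTES7 and 61.3, 67.7 and 51.3 in R1. The 3 lines did not overlap, with P19 in the background range, R1 above the array median and P19 NTES7 well above both. From P19 to P19 NTES7 it rose 33.1-fold (log2 difference 5.05 ± 0.14, adjusted p = 7.85e-11 from limma). Compared to R1, the P19 NTES7 level was 5.07-fold higher (log2 difference 2.34 ± 0.14, adjusted p = 4.69e-08). The rise from P19 to R1 was 6.52-fold (log2 difference 2.71 ± 0.14, adjusted p = 6.70e-09). As the P19 values lay below the array median, the folds against P19 are over the floor of the array and are not exact, which holds below for every fold against a line in which the gene is under the array median.

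Meioc and Brdt were the genes with a high level in the P19-derived line alone. Meioc, a partner of Ythdc2 that keeps germ cells in meiotic prophase, had intensities of 15.5, 17.8 and 17.5 in P19, 183, 200.2 and 193 in P19 NTES7 and 19, 21.1 and 35.9 in R1. All P19 NTES7 arrays were far above the others, and in R1 replicate 3 was the high array. In P19 NTES7, Meioc was 11.3-fold above P19 (log2 difference 3.5 ± 0.18, adjusted p = 3.06e-08) and 7.88-fold above R1 (log2 difference 2.98 ± 0.18, adjusted p = 5.98e-08). The difference between R1 and P19 was not called (log2 difference 0.53, adjusted p = 0.042), and without R1 replicate 3 it was 0.24.

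Brdt, a bromodomain protein of the testis that binds acetylated histones, gave intensities of 11.9, 13 and 10.4 in P19, 50.8, 45.1 and 51.2 in P19 NTES7 and 12.8, 13.5 and 12.8 in R1. P19 NTES7 stood clear of the other lines, and all arrays of P19 and R1 were below the array median. In P19 NTES7 it was 4.19-fold above P19 (log2 difference 2.07 ± 0.11, adjusted p = 2.44e-08) and 3.75-fold above R1 (log2 difference 1.91 ± 0.11, adjusted p = 2.28e-08). R1 and P19 differed by only 0.16 ± 0.11 on the log2 scale.

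Ythdc2, the RNA helicase that acts with Meioc, was the gene called lower in R1. Its intensities were 199.7, 189 and 194 in P19, 152, 168 and 144 in P19 NTES7 and 79.2, 82.8 and 82.3 in R1. All 9 arrays were well above the array median, the lines did not overlap, and R1 was lowest. Ythdc2 fell 2.39-fold from P19 to R1 (log2 difference -1.25 ± 0.09, adjusted p = 1.79e-07), while P19 NTES7 was not called against P19 (log2 difference -0.33 ± 0.09, adjusted p = 0.0226) or against R1 (log2 difference 0.92 ± 0.09, adjusted p = 6.89e-06). Ythdc2 is also used outside meiosis, and its level in all 3 lines was among the brightest of the set.

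Among the other genes of germ cell fate and RNA control, Dazl, an RNA-binding regulator of translation in germ cells, rose in steps. Its intensities were 9.78, 10.3 and 11 in P19, 16, 18.3 and 17.5 in P19 NTES7 and 31.6, 31.4 and 35.8 in R1. The lines did not overlap, with P19 NTES7 near the array median. Dazl was 3.18-fold higher in R1 than in P19 (log2 difference 1.67 ± 0.10, adjusted p = 2.34e-08), and P19 NTES7 was 1.67-fold above P19, which passed the adjusted p (0.00015 from limma) but not the fold. Prdm1, a repressor that specifies primordial germ cells, was not called, with intensities of 29.3, 24.1 and 17.7 in P19, 37.7, 35.5 and 36.6 in P19 NTES7 and 29.7, 28.3 and 26.7 in R1. The P19 NTES7 arrays lay above all the P19 and R1 arrays, by 0.65 ± 0.15 on the log2 scale over P19 (adjusted p = 0.00642). Stra8, the gatekeeper of entry into meiosis, was at 9.88 ± 0.2, 10.4 ± 0.64 and 10.6 ± 0.24 in P19, P19 NTES7 and R1. Nanos2 and Nanos3, RNA-binding proteins of early germ cells, likewise remained at 9.07 to 12.0 on every array. No call separated the lines for these 3 genes, and all lay below the array median.

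Of the 3 transcription factors of oocytes and spermatogonia, 1 was called. Sohlh2, a basic helix-loop-helix factor of early germ cells, had intensities of 9.79, 11 and 11.2 in P19, 52.4, 52.8 and 50.6 in P19 NTES7 and 32.7, 31.6 and 26.8 in R1. P19 was in the background range, R1 was above it, and P19 NTES7 was the highest line on every array. Sohlh2 rose 4.87-fold from P19 to P19 NTES7 (log2 difference 2.28 ± 0.10, adjusted p = 7.55e-09) and 2.83-fold from P19 to R1 (log2 difference 1.5 ± 0.10, adjusted p = 9.93e-08). Between P19 NTES7 and R1 it passed the adjusted p but not the fold (log2 difference 0.78 ± 0.10, adjusted p = 7.80e-05). Figla and Nobox, factors of the oocyte, were below the array median in all lines, with means of 10.2 ± 0.12, 10.4 ± 0.62 and 11.1 ± 1.75 for Figla and 7.82 ± 0.58, 8.51 ± 0.7 and 8.24 ± 0.62 for Nobox in P19, P19 NTES7 and R1.

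The 3 subunits of meiotic cohesin in the set all had higher means in both other lines than in P19, and 1 of them, Stag3, was called. Its intensities were 10.3, 10.6 and 12.6 in P19, 21.4, 22.2 and 18.1 in P19 NTES7 and 57.3, 55.6 and 101 in R1. The lines did not overlap, and R1 replicate 3 was far above the other R1 arrays. Stag3 was 6.17-fold higher in R1 than in P19 (log2 difference 2.62 ± 0.19, adjusted p = 1.60e-07), and without R1 replicate 3 the log2 difference was 2.34. P19 NTES7 was 3.35-fold below R1 (log2 difference -1.74 ± 0.19, adjusted p = 1.51e-05, or -1.46 without that array) and not called against P19 (log2 difference 0.88 ± 0.19, adjusted p = 0.00532). Rec8, a meiotic kleisin subunit, had 11.7, 13.1 and 12.2 in P19, 25.1, 23.7 and 20.5 in P19 NTES7 and 16.6, 18.3 and 23.8 in R1. Both other lines were above P19 on every array and overlapped with each other, and no pair reached the fold, with P19 NTES7 above P19 by 0.90 ± 0.13 (adjusted p = 0.00029) and R1 by 0.65 ± 0.13 (adjusted p = 0.00167) on the log2 scale. Smc1b was below the array median in all lines, at 8.68 ± 0.21, 11.2 ± 0.92 and 12.1 ± 2.97.

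Of 8 measured genes of the chromosome axis and the synaptonemal complex, Hormad1 and Syce1 were called and both were highest in R1. Hormad1, an axis protein that monitors synapsis, had intensities of 18.6, 17.5 and 17 in P19, 17.8, 19.3 and 17.2 in P19 NTES7 and 52.4, 43.3 and 52.9 in R1. P19 and P19 NTES7 overlapped, and R1 was clear of both. In R1 it was 2.79-fold above P19 (log2 difference 1.48 ± 0.10, adjusted p = 1.18e-07), and in P19 NTES7 it was 2.72-fold below R1 (log2 difference -1.45 ± 0.10, adjusted p = 3.00e-07). P19 NTES7 and P19 differed by 0.03 ± 0.10 on the log2 scale. Hormad1 was the 1 gene of the set with a second probe set, which was dimmer and moved alike, with log2 differences of 1.68 for R1 minus P19 and -1.57 for P19 NTES7 minus R1. The platform annotation assigns that probe set to Hormad1, and whether it reads the same locus was not checked.

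Syce1, a protein of the central element of the complex, had intensities of 10.1, 9.68 and 10.6 in P19, 24.9, 26.6 and 28.7 in P19 NTES7 and 43.3, 40.6 and 51 in R1. The lines did not overlap, and P19 NTES7 lay between the other two. Syce1 was 4.42-fold higher in R1 than in P19 (log2 difference 2.15 ± 0.11, adjusted p = 4.59e-09) and 2.64-fold higher in P19 NTES7 than there (log2 difference 1.4 ± 0.11, adjusted p = 9.92e-07), while P19 NTES7 against R1 passed only the adjusted p (log2 difference -0.75 ± 0.11, adjusted p = 0.000148). Its partners Syce2 and Tex12 in the same element were not called, whereas Six6os1, a central element protein outside the set, was called and is given below. Syce2 was bright in all lines, at 103 ± 7.24, 111 ± 1.83 and 92.8 ± 9.62, and Tex12 was in the background range, at 9.31 ± 0.34, 9.51 ± 0.41 and 10.2 ± 0.66, in P19, P19 NTES7 and R1.

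The filament protein and the axis proteins other than Hormad1 were not called. Sycp1, the transverse filament of the complex, had intensities of 11, 10.01 and 11.7 in P19, 15.2, 16.5 and 17.2 in P19 NTES7 and 21.1, 18.7 and 19.3 in R1. The lines did not overlap, but neither difference from P19 reached the fold (log2 difference 0.85 ± 0.10, adjusted p = 1.60e-05 for R1, log2 difference 0.58 ± 0.10, adjusted p = 0.00106 for P19 NTES7). Sycp3, of the lateral element, was well above the array median in all lines, with 47.3, 42.7 and 42.3 in P19, 38, 39.1 and 37.7 in P19 NTES7 and 45.4, 55.5 and 93.3 in R1. R1 replicate 3 alone was high, and its line overlapped with P19 (log2 difference 0.49 ± 0.19, adjusted p = 0.0727). Sycp2, of the lateral element, and Hormad2, an axis protein, stayed below the array median, with lower P19 means (9.49 ± 0.3 and 9.94 ± 0.15) than means in P19 NTES7 (15.4 ± 2.19 and 14.2 ± 0.74) and R1 (13.6 ± 1.04 and 15.2 ± 1.64).

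Among 12 genes of recombination, 3 were called and all were highest in R1. Mlh3, a mismatch-repair family protein that acts at crossovers, had intensities of 15, 15.7 and 14.6 in P19, 45, 43 and 46.6 in P19 NTES7 and 66.6, 65.7 and 66 in R1. The lines did not overlap and their arrays lay close together. Mlh3 rose 4.39-fold from P19 to R1 (log2 difference 2.13 ± 0.09, adjusted p = 6.54e-10) and 2.98-fold from P19 to P19 NTES7 (log2 difference 1.57 ± 0.09, adjusted p = 5.29e-08), and P19 NTES7 was 1.47-fold below R1, within the fold limit (adjusted p = 0.000309 from limma). Tex11, an X-linked gene needed for synapsis and crossovers, had 9.11, 9.86 and 11.2 in P19, 19.3, 15.9 and 13.4 in P19 NTES7 and 30.8, 31.4 and 32.8 in R1. It was 3.17-fold higher in R1 than in P19 (log2 difference 1.66 ± 0.13, adjusted p = 2.88e-07), and P19 NTES7 lay between the lines without overlap. P19 NTES7 against R1 sat at the edge of the fold limit (log2 difference -0.98 ± 0.13, adjusted p = 6.80e-05), and it was past the limit when the arrays were centred on their medians or quantile normalized again, at -1.005 and -1.04, and without R1 replicate 1 or P19 NTES7 replicate 1, at -1.002 and -1.12.

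Zcwpw1, a reader of the histone marks that Prdm9 sets at recombination sites, had intensities of 26, 29.3 and 29.7 in P19, 31.1, 29.9 and 31.6 in P19 NTES7 and 57.1, 55 and 79.6 in R1. R1 was above both other lines, and its replicate 3 was again the high array. R1 was 2.23-fold above P19 (log2 difference 1.15 ± 0.13, adjusted p = 1.15e-05) and P19 NTES7 was 2.04-fold below R1 (log2 difference -1.03 ± 0.13, adjusted p = 5.26e-05). Both calls rested on R1 replicate 3, since without it the log2 differences were 0.99 and -0.86, under the fold limit. Prdm9 itself, the methyltransferase of those marks, was below the array median in all lines, with 12.7, 14 and 16.3 in P19, 18, 14.9 and 17.1 in P19 NTES7 and 12.4, 12.1 and 11 in R1. The R1 arrays were the lowest, and no pair was called.

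The other genes of recombination showed no call. Dmc1, the meiotic recombinase, had intensities of 14.3, 13.1 and 16.1 in P19, 23.5, 26.4 and 25.4 in P19 NTES7 and 21.9, 24.2 and 31.7 in R1. Both other lines were above P19 on every array, by 0.82 ± 0.13 in R1 (adjusted p = 0.000284) and 0.79 ± 0.13 in P19 NTES7 (adjusted p = 0.000888) on the log2 scale, short of the fold. Tex15, a germ cell protein needed for break repair, had means of 16.6 ± 3.15, 20.3 ± 1.47 and 21.8 ± 6.92, and its lines overlapped. Spo11, the enzyme that makes the breaks, was in the background range at 7.9 ± 0.38, 8.58 ± 0.48 and 7.56 ± 0.38 in P19, P19 NTES7 and R1. Mei1 and Mei4, which are needed for the breaks, were also below the array median, and so were Meiob, a single-strand DNA binding protein, and Msh4 and Msh5, a pair that stabilizes recombination intermediates. Msh5 was the 1 gene of the set with an adjusted p under 0.01 and a lower level in R1 than in P19 short of the fold, at 10.5 ± 0.09 against 15.2 ± 1.77 (log2 difference -0.53 ± 0.10).

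Mov10l1, an RNA helicase of the piRNA pathway that guards the germ line against transposons, was called at the edge of the fold limit. Its intensities were 7.77, 8.66 and 8.61 in P19, 10.4, 10.5 and 10.9 in P19 NTES7 and 17.6, 18.2 and 14.6 in R1. R1 was above P19 by 2.01-fold (log2 difference 1.005 ± 0.10, adjusted p = 4.97e-06), and the R1 mean was just below the array median. The call was lost, with log2 differences of 0.95 to 0.98, when the arrays were centred or quantile normalized again and without P19 replicate 1, R1 replicate 1 or R1 replicate 2. Gtsf1, another piRNA pathway factor, was lowest of the set in P19, at 7.19 ± 0.6, with 8.28 ± 0.33 in P19 NTES7 and 9.23 ± 0.58 in R1.

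The remaining genes have single roles in male germ cells. Tex14, a protein of the bridges that join germ cells, had intensities of 8.71, 7.64 and 8.24 in P19, 9.35, 12.2 and 9.29 in P19 NTES7 and 34.8, 34.1 and 36.4 in R1. R1 was high on every array and both other lines were in the background range. Tex14 was 4.29-fold higher in R1 than in P19 (log2 difference 2.1 ± 0.12, adjusted p = 1.22e-08) and 3.44-fold lower in P19 NTES7 than in R1 (log2 difference -1.78 ± 0.12, adjusted p = 1.00e-07).

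Slc25a31, the ADP/ATP carrier of germ cell mitochondria, had 8.64, 8.49 and 8.67 in P19, 21.5, 21 and 18.3 in P19 NTES7 and 18.1, 18.5 and 16.6 in R1. P19 was in the background range, and the other lines overlapped just above the array median. It rose 2.35-fold in P19 NTES7 (log2 difference 1.23 ± 0.10, adjusted p = 1.31e-06) and 2.06-fold in R1 (log2 difference 1.04 ± 0.10, adjusted p = 1.75e-06) over P19, and the R1 call was lost at 0.99 when the arrays were quantile normalized again. Tex101, a surface protein of germ cells, stayed at 8.0 to 10.5 on all arrays.

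**Figure D3:**
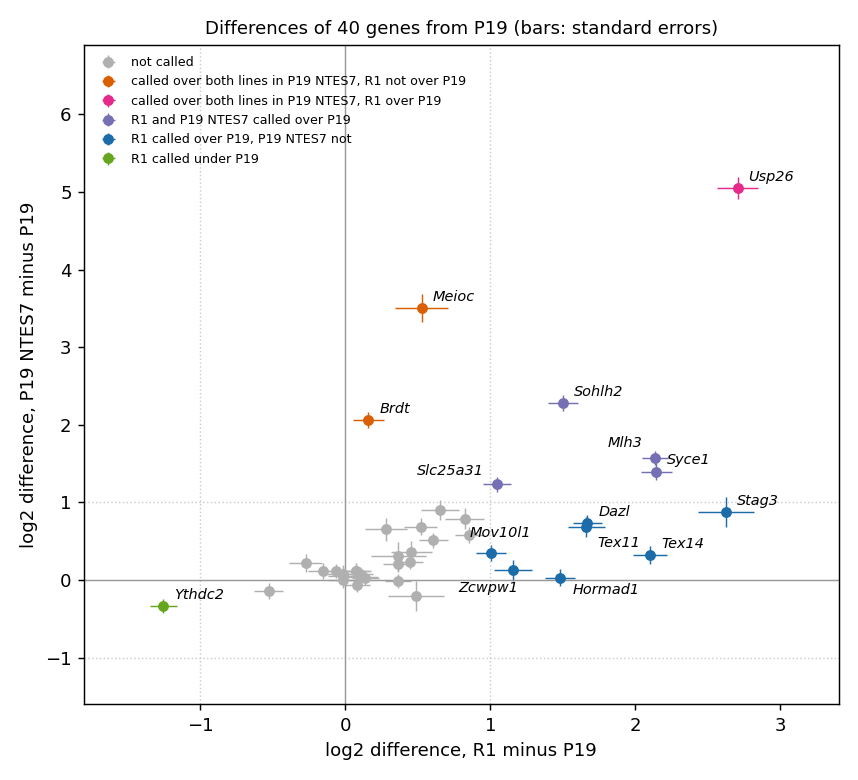
Log2 difference from P19 of each of the 40 genes, in R1 (horizontal axis) and in P19 NTES7 (vertical axis), with standard errors from limma as bars, colours by pattern and dotted lines at the fold limit. Usp26, Meioc, Brdt and Sohlh2 are higher on the vertical than on the horizontal axis. Stag3, Tex14, Hormad1 and Zcwpw1 lie past the fold limit on the horizontal axis but not on the vertical one. The 2 axes share the P19 arrays.

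Against the array median, 8 of the 40 genes were above it in P19, 20 in R1 and 18 in P19 NTES7, beside 51.4%, 51.5% and 51.1% of named genes. In all 3 lines 19 genes were below it, with single values from 6.5 to 18.2, and Mov10l1 was the only one of these 19 that was called. The others were Nanos2, Nanos3, Stra8, Figla, Nobox, Smc1b, Hormad2, Sycp2, Tex12, Spo11, Mei1, Mei4, Prdm9, Meiob, Msh4, Msh5, Gtsf1 and Tex101. Another 7 genes were above the array median in some line without a call, namely Prdm1, Rec8, Sycp1, Sycp3, Syce2, Dmc1 and Tex15. Thus the called genes did not include the enzyme that starts recombination (Spo11), the gatekeeper of meiotic entry (Stra8) or the oocyte factors Figla and Nobox.

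The replicates of R1 differed among themselves in this set. R1 replicate 3 was more than 0.3 above both other R1 arrays on the log2 scale in 8 of the 40 genes, beside 10.2% of named genes. These were Meioc, Rec8, Smc1b, Stag3, Sycp3, Zcwpw1, Dmc1 and Tex15, and they take in all 3 cohesin subunits of the set. Rad21l, a meiotic cohesin subunit outside the set and chosen after its values were seen, was lowest on replicate 3. Its R1 values were 11.4, 10.7 and 8.13 for replicates 1, 2 and 3, all below the array median. The largest gap was that of Sycp3, where the array was at 45.4, 55.5 and 93.3 for replicates 1, 2 and 3, or 0.89 on the log2 scale above the mean of the other R1 arrays. It was more than 0.3 below both in 1 gene, Figla, beside 8.59% of named genes. On this array the summed fibroblast markers were highest of the 9 arrays, at 3967 against 3554 and 3541 on the other R1 arrays. These markers did not move alike. Fn1 (1356, 1338 and 1549 on R1 replicates 1, 2 and 3) and Dcn (196, 186 and 313) were highest on replicate 3. In contrast, Thbs1 (471, 462 and 411) and Acta2 (171, 187 and 148) were lowest there. Of 10 listed markers of cells like the 2-cell embryo 5 were measured, without any Zscan4 gene, and 3 of the 5 were below the array median in R1. Their sum was lowest of the R1 arrays on replicate 3, at 56.0 against 99.5 and 100.5. Most of this gap lay in Usp17lc (35.3, 37.6 and 14.0 on R1 replicates 1, 2 and 3) and Tmem92 (35.3, 34.3 and 17.1). The part of fibroblasts or of 2-cell-like cells in the values of the germ cell genes was not tested.

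**Figure D4:**
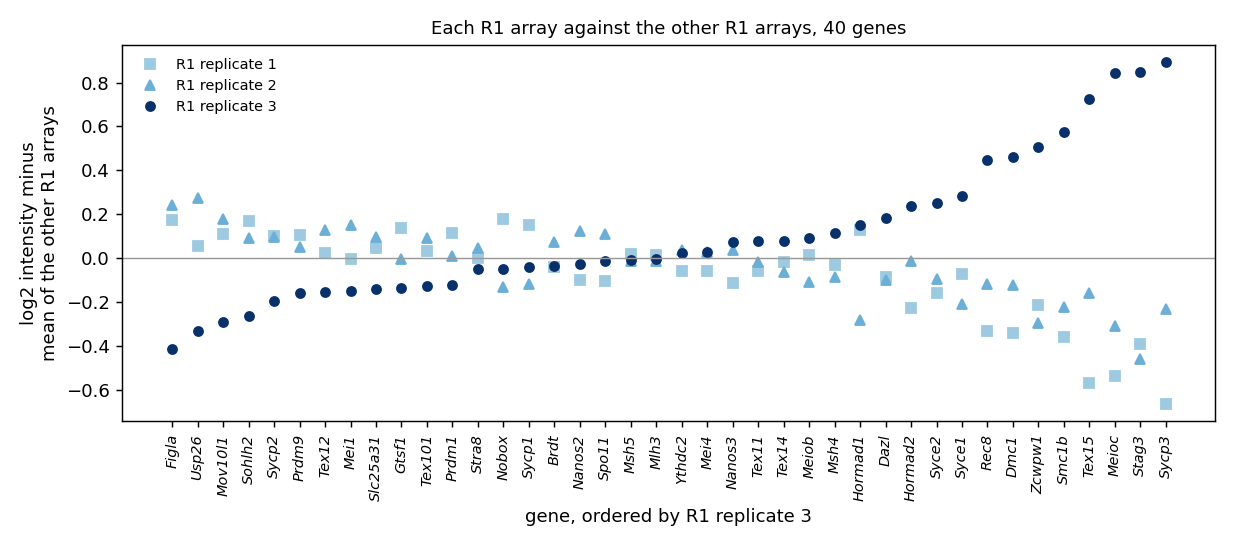
Log2 intensity of each R1 array minus the mean of the other R1 arrays for the 40 genes, ordered by replicate 3. At the right, Stag3, Meioc and Sycp3 have replicate 3 more than 0.8 above the others, whereas most of the genes in the middle lie close to 0.

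Other genes of the same processes were counted by the same call rule. Of 30 other measured genes of meiotic prophase, 2 were called higher and 1 lower in R1 than in P19, 2 over and 1 under P19 in P19 NTES7, and 2 under R1 in P19 NTES7. Their shares called over P19 were 6.67% in each line, beside 3.85% and 1.44% of named genes, and those called under P19 were 3.33%, beside 3.46% and 1.38%. Their median log2 differences were 0.20, 0.08 and -0.06 for R1 minus P19, P19 NTES7 minus P19 and P19 NTES7 minus R1. Hsf2bp, a partner of the recombination mediator Brca2, had intensities of 16.2, 16.2 and 17.1 in P19, 19, 17.3 and 19.5 in P19 NTES7 and 156, 164 and 154 in R1. Only R1 was high, and P19 NTES7 minus R1 was -3.09 ± 0.09 on the log2 scale (adjusted p = 1.09e-10). Six6os1, a central element protein listed under an older symbol, was at 23.9 ± 1.36, 60.7 ± 7.56 and 81.3 ± 7.89 in P19, P19 NTES7 and R1, called over P19 in both lines. Ccnb1ip1, a regulator of crossovers, was lower in P19 NTES7, at 55.2 ± 0.09 beside 149 ± 20.4 in P19 and 179.9 ± 0.57 in R1. Iho1, which is needed for the breaks, was called over P19 in P19 NTES7, at 29.3 ± 2.55 against 14.5 ± 2.68, near the fold limit (log2 difference 1.03 ± 0.13). Cntd1 was the 1 gene of this list called lower in R1 than in P19, and it was chosen after its values were seen. It was at 24 ± 3.8 in P19 and 11.9 ± 0.58 in R1, at the edge of the fold limit (log2 difference -1.001 ± 0.13).

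Of 26 other germ line genes 7 were called higher in R1 than in P19 and 5 over P19 in P19 NTES7, with none called lower in either, or 26.9% and 19.2%, beside 3.85% and 1.44% of named genes. Their median log2 differences were 0.32 and 0.26. Ddx4, the RNA helicase Vasa of germ cells, had intensities of 9.29, 9.23 and 12.1 in P19, 32.9, 30.2 and 23.6 in P19 NTES7 and 43.8, 37.3 and 54.3 in R1. Both other lines were above P19 on every array (log2 difference 2.14 ± 0.16, adjusted p = 2.18e-07 for R1, log2 difference 1.5 ± 0.16, adjusted p = 2.07e-05 for P19 NTES7). Tfap2c, a transcription factor of primordial germ cells and placenta, was at 18.6 ± 1.4, 55.1 ± 5.32 and 105 ± 1.5 in P19, P19 NTES7 and R1. Ooep, an oocyte protein, was at 15.6 ± 2.14, 30.1 ± 6.07 and 91.8 ± 7.18, and Kit, the receptor of stem cell factor, at 55.3 ± 1.9, 91 ± 3.43 and 236 ± 28.8, both called over P19 in R1 only. Dnd1, an RNA-binding protein of germ cells chosen after its values were seen, was the 1 gene of this list called higher in P19 NTES7 than in R1, with 11.9, 10.9 and 11.9 in P19, 50.8, 40.7 and 48.8 in P19 NTES7 and 17.1, 19.6 and 21.4 in R1. The P19 NTES7 arrays were all above the others (log2 difference 1.27 ± 0.12, adjusted p = 2.73e-06 against R1).

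Of 26 measured genes that repress germ line genes, all were above the array median in every line, beside 51.1% to 51.5% of named genes. Against P19 2 were called, the same way in R1 and in P19 NTES7, with 3.85% higher and 3.85% lower in each. Of named genes 3.85% were called higher and 3.46% lower in R1, so the R1 shares were near those of all genes. In P19 NTES7 the shares of named genes were 1.44% and 1.38%. Dnmt3a, a DNA methyltransferase, had intensities of 364, 352 and 313 in P19, 83.4, 70.1 and 76.2 in P19 NTES7 and 79.3, 75.5 and 109.9 in R1. P19 was high and the other lines overlapped (log2 difference -1.98 ± 0.14, adjusted p = 1.01e-07 for R1, log2 difference -2.16 ± 0.14, adjusted p = 1.60e-07 for P19 NTES7). Dnmt3l, the cofactor of that enzyme in germ cells, had 24.7, 26.1 and 22 in P19, 117, 113 and 124 in P19 NTES7 and 302, 307 and 233 in R1. The lines did not overlap and R1 was highest (log2 difference 3.53 ± 0.12, adjusted p = 1.31e-10 for R1, log2 difference 2.29 ± 0.12, adjusted p = 3.06e-08 for P19 NTES7). In P19 NTES7 against R1, Dnmt3l was the 1 called gene of the list (log2 difference -1.24 ± 0.12, adjusted p = 4.54e-06). That was 3.85% of the list called lower, beside 2.84% of named genes. The median log2 difference of the list was -0.10 for R1 minus P19 and -0.08 for P19 NTES7 minus P19.

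Promoter windows of 300 bases, from 250 before to 50 after the first RefSeq start of a gene, were found for 37 of the 42 genes. Ythdc2, Spo11, Meiob, Tex11 and Tex15 had none in the table used. An E-box was in 9 of the 37 windows (24.3%), beside 8.38% of 15614 windows of genes named on the array and 7.24% of 27025 windows in all. The genes were Stag3, Hormad1, Sycp1, Sycp3, Tex12, Mov10l1, Fkbp6, Brdt and Slc25a31. The E2F6-type motif was in 14 windows (37.8%), beside 27.7% of the windows of genes named on the array. The median number of CG was 18 in the 37 windows and 15 in those of named genes. Among windows with 20 or more CG, 8 of 15 (53.3%) held an E-box, beside 728 of 6130 (11.9%) of the named genes. The E2F6-type motif was in 9 of these 15 (60%), beside 3013 of the 6130 (49.2%). These are counts of letters and no test was made of them.

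The windows of the 3 genes called over R1 in P19 NTES7 were not alike. Brdt had 23 CG and an E-box, Meioc had 28 CG and an E2F6-type motif, and Usp26 had 5 CG and neither. Among genes called over P19 in R1 or P19 NTES7, 13 had a window, and 5 of these held an E-box (38.5%). Of the 22 uncalled genes with a window, 3 held one (13.6%), namely Sycp1, Sycp3 and Tex12. The E2F6-type motif was in 38.5% of the former and 40.9% of the latter, and 69.2% and 22.7% had 20 or more CG. Sycp3 has 2 E-boxes and was above the array median in all lines, whereas Tex12, with 26 CG and 1 E-box, was in the background range.

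**Figure D5:**
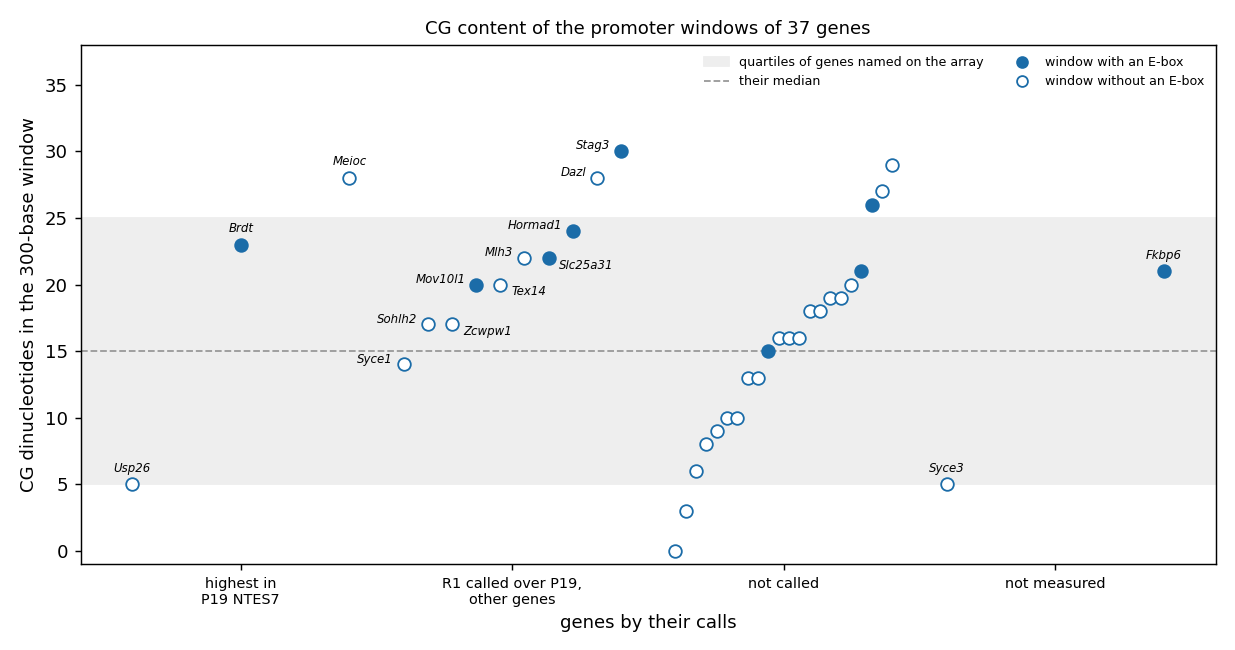
Number of CG dinucleotides in the 300-base promoter window of 37 genes, by their calls, with filled points for windows that hold an E-box and a grey band for the quartiles of genes named on the array (dashed line, median of 15). Usp26 lies at 5 CG, whereas Meioc, Dazl and Stag3 lie at 28 to 30, and the uncalled genes run from 0 to 29.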

How the data were processed

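Total RNA (100 ng for each array) of 3 mouse lines was labelled with biotin and hybridised to Affymetrix Gene 1.0 ST arrays, 3 for each line. The authors made the deposited intensity values by Robust Multichip Average (RMA). Their scale is linear, and their medians show that the median scaling named in the methods was not applied to them. Versions and a build for that step are not given in the sources used here. Of 28853 probe sets, 21789 had 1 gene symbol in the platform annotation, 1621 several and 5443 none.

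Log2 values of all probe sets on the 9 arrays entered 1 fit in limma (version 3.58.1, under R version 4.3.3), with 1 mean for each line and moderated variances, tested on simulated data first. Every adjusted p is Benjamini-Hochberg adjusted over all probe sets of a comparison. No filter on dim probe sets was applied. The study's methods use a one-way test of each probe set with these limits on p and fold, which was an alternative here. The number of arrays limits the precision: the SD of log2 values over the arrays of a line had a median over named genes of 0.105 (P19), 0.132 (P19 NTES7) and 0.119 (R1).

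The genes of the set, the other lists and the motifs were chosen with earlier results of these data known. Every called gene of the set was named with its 9 values, and from each other list up to 4 called genes with the largest log2 difference. Promoter sequences came from RefSeq (GRCm38.p6), the first window of each gene. Alternatives were the replicate block, a filter on dim probe sets, quantile normalization, median centring, an offset of 16, a trend in the variance, other choices of probe set, pairs of lines fitted alone, the methods' test, and leaving out each array. Counts against the array median were also taken after division by that median, which was chosen after seeing the data.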

Additional observations from a re-analysis of the deposited data

How the results depend on the processing

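No called difference of the 40 genes changed direction under any alternative run. Adding an offset of 16 to each intensity compresses low values by construction and lowered the calls: 6 of the 40 genes between R1 and P19, 4 between P19 NTES7 and P19 and 4 between P19 NTES7 and R1, with 1088, 412 and 709 of all probe sets. Under it 9 of the 15 called genes changed pattern. Dazl, Hormad1, Zcwpw1, Tex11, Mov10l1 and Slc25a31 had no call left, Sohlh2 lost its call in R1 (log2 difference 0.79), and Syce1 and Mlh3 lost theirs in P19 NTES7 (0.71 and 0.97). So 0 genes were called over P19 in both other lines but not between them, and 4 in R1 alone (Stag3, Tex14, Syce1 and Mlh3). Tex14 was then not called between P19 NTES7 and R1 (-0.96). Usp26, Meioc, Brdt and Ythdc2 had the same pattern as before. Leaving out 1 array at a time gave 12 to 13, 7 and 6 to 8 called genes for R1 against P19, P19 NTES7 against P19 and P19 NTES7 against R1. Replicate numbers did not pair the arrays: of 9 pairs with the same number 0 had deviations from their line means correlated over 0.1 (range -0.22 to 0.04). With the replicate number as a block the counts were 13, 7 and 7, as without it, and no gene changed its pattern. The filter on dim probe sets left 18 of the 40 genes to test. Values below the array median, where most P19 levels lie, limit what can be said of the low genes.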

Other observations

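The neighbours of Meioc, Brdt and Usp26, the 3 genes of the set called over R1 in P19 NTES7, were looked up in RefSeq after their values were seen, with 2 genes on each side. Tgfbr3, a co-receptor for TGF-beta ligands that lies next to Brdt, had its highest level in P19 NTES7, at 74.2 ± 10.7, beside 22.2 ± 2.0 in P19 and 34 ± 9.86 in R1, and was called in P19 NTES7 both over P19 (log2 difference 1.74, adjusted p = 1.09e-05 from limma) and over R1 (1.16, adjusted p = 0.000202). Ephx4, on the other side of Brdt, was in the background range in all lines, at 8.76 ± 0.44, 8.8 ± 0.31 and 8.7 ± 0.09. None of the 4 neighbours of Meioc or the 4 of Usp26 was called higher in P19 NTES7 than in either other line. Short of the fold, all 4 neighbours of Meioc were higher in P19 NTES7 than in R1, most of all Ccdc43 (log2 difference 0.92, adjusted p = 0.000163 from limma). All 4 were also lower in R1 than in P19, and Ccdc43 was called so (log2 difference -1.39). Gpc4, a neighbour of Usp26, was lower in P19 NTES7 than in P19 without reaching the fold (log2 difference -0.97, adjusted p = 0.000159).

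Usp26 and Tex11 are X-linked. Over 739 X-linked genes the median log2 difference was 0.03 for R1 minus P19, 0.03 for P19 NTES7 minus P19 and 0.00 for P19 NTES7 minus R1, beside 0.02, 0.02 and 0.01 for all named genes.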
